A study of Mus musculus with 10 samples.

Results

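Cblb, Cd5, Cd6, Dgka, Dgkz, Dok1, Dok2 and Dtx1 encode proteins that hold back signalling from the T cell receptor, and these 8 genes, of 20617 in the table, were examined in spleen T cells of mice with and without experimental asthma. They are given by name, with no threshold on a measured value. The names of the deposited table are out of step with its values. The values of the genes beginning with C were therefore read 3 rows above the name, and those of the genes beginning with D 5 rows above it. A hidden Markov model that compared the annotation of the names with the mean level of each row, without use of the groups, gave these distances a probability of at least 0.995 for each of the 8 genes.

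The libraries came from Nf1OPG mice (Nf1 flox/mut; GFAP-Cre, strict C57BL/6 background), in which Cre acts in neuroglial progenitors, so that the T cells of both groups carry a germline Nf1 mutation. The mice were 4 weeks old at the first and 6 weeks old at the last treatment, and the age at which the spleens were taken is not given in the sources used here. The 5 OVA libraries are from mice sensitized over 2 weeks by intraperitoneal injections of 0.5 mL chicken ovalbumin at 16 μg/mL in aluminium hydroxide at 2 mg/mL and then challenged with 4 intranasal doses, and the 5 PBS libraries are from mice that received PBS only, so that ovalbumin and the adjuvant cannot be told apart. The labels call the cells CD3+, whereas the protocol names isolation kits for CD4+ and CD8+ T cells, and whether a library holds 1 mouse is not given in the sources used here. If it does not, the p-values measure only the spread between these samples.

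When the T cell receptor meets its ligand, the kinases Lck and Zap70 phosphorylate adaptor proteins, and phospholipase C then releases diacylglycerol, which switches on the Ras and protein kinase C pathways. The 8 genes act at successive points of this chain. CD5 and CD6 are surface receptors that bring inhibitory enzymes to the receptor complex, the Dok adaptors recruit inhibitors of Ras, the diacylglycerol kinases consume diacylglycerol, and the ubiquitin ligases Cbl-b and Deltex1 limit the supply or activity of signalling proteins. Several of them, Cblb, Dgka, Dgkz and Dtx1 among them, are known from T cells made unresponsive (anergic).

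Sequence before the start of transcription was available from RefSeq (GRCm38.p6) for 5 of the 8 genes, and 3 of these, Cblb, Cd5 and Dtx1, have 1 listed start. For Cblb and Dtx1 all 250 bases before the RefSeq start lie inside an exon of GENCODE M21, which places the start further upstream, and they are not shown. For Cd5, whose values followed those of its neighbour Cd6 most closely, 222 bases lie before the start in both annotations. They are shown 5′ to 3′ on the coding strand, and capitals mark AGGAAG (ETS core).
Cd5 (chr19:10739003-10739224, minus strand): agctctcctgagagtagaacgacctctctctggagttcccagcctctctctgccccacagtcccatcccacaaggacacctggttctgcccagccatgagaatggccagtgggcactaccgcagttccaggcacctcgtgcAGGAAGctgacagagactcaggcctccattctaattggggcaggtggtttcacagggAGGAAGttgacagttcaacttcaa
GGAAA (NFAT core), TGTGGT (RUNX core) and AGGAAG, the cores of factors that act in T cells, were searched on both strands. The ETS core stood 109 and 52 bases before the RefSeq start on the coding strand, and 26.3% of the 32851 RefSeq windows of this length hold it. The other motifs, which 51.6% (NFAT core) and 12.8% (RUNX core) of the windows hold, were not found in these letters. The matches describe letters, and binding was not measured.

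All 8 genes were detected well above the floor in every library. The reads were recovered from the normalized counts, and their number lay between 6835696 and 23130017 per PBS library and between 14711683 and 29915782 per OVA library. The floor of 3 reads, which covers counting error only, was at most 8.31 normalized counts, in PBS replicate 3, the library with the fewest reads. In that library the 8 genes still had from 158 reads (Cblb) to 1768 reads (Cd6). Normalized counts, the unit used below unless stated, are reads divided by a size factor for each library.

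No difference between the OVA and PBS libraries was detected for any of the 8 genes. At an adjusted p under 0.05, limma called 0 of 8, against 0.00494% of the 20249 rows tested. edgeR also called 0 of 8 (0.00988% of all rows), and DESeq2 called 0 of 8 (0.894% of the 18678 rows to which it gave an adjusted p). An unadjusted limma p under 0.05 was found for 0 of 8 (9.77% of all rows). The ranges of the groups overlapped for 8 of 8 genes, and 1.78% of all rows had groups that did not overlap. The log2 fold changes of OVA against PBS ran from -0.23 (Dtx1) to 0.25 (Cblb), with a median of 0.03 beside 0.04 over all rows tested. These intervals were wide: the widest, that of Dgkz, allowed a fold from 0.701 to 1.43, and the narrowest, that of Dok2, one from 0.718 to 1.20. In bulk RNA, fewer cells of a type and less RNA per cell cannot be told apart.

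**Figure D1:**
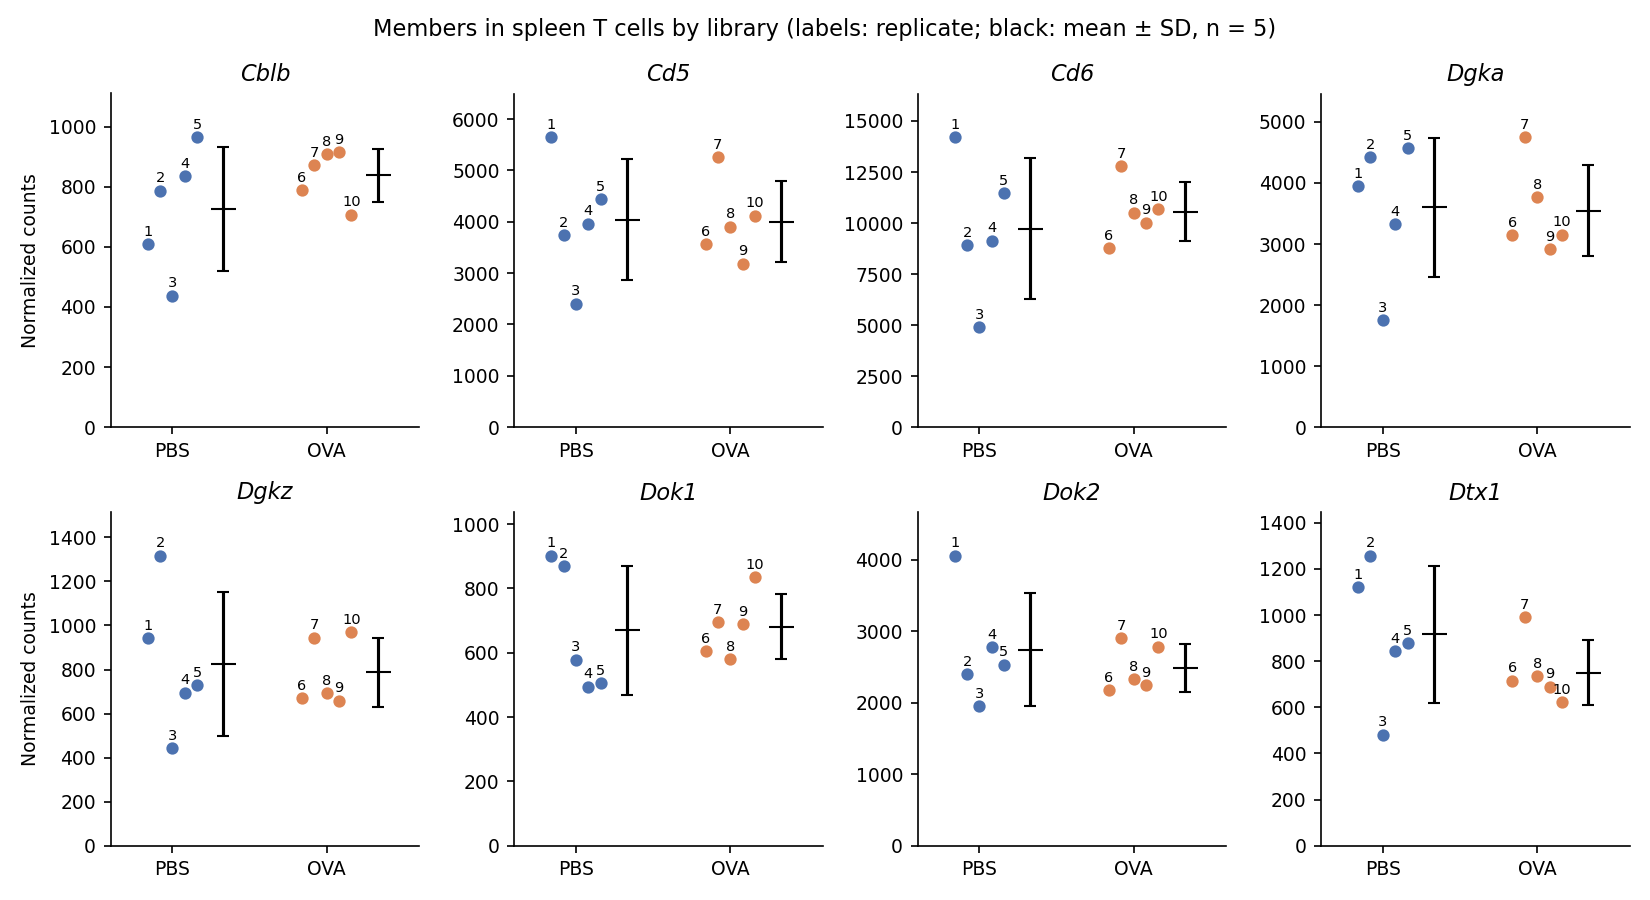
Normalized counts (linear axis from 0) of the 8 genes in the 5 PBS (blue) and 5 OVA (orange) libraries. Each point is 1 library, labelled with its replicate number, and the black mark and bar are the mean ± SD. The OVA points lie within or close to the span of the PBS points in each panel, and PBS replicate 3 is the lowest point for 7 of 8 genes.

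Cd5 and Cd6 encode related scavenger-receptor proteins of the T cell surface that are phosphorylated when the receptor is engaged. They lie on the minus strand of the same chromosome, Cd5 (ENSMUSG00000024669.8) at chr19:10717116-10739002 and Cd6 (ENSMUSG00000024670.17) at chr19:10789341-10830058, with 50338 bases between them (GRCm38, GENCODE M21). Cd5 was measured at 5652, 3740.5, 2407, 3964 and 4440.1 in PBS replicates 1 to 5. In OVA replicates 6 to 10 it was measured at 3559, 5258, 3907, 3183 and 4123. PBS replicate 1 was the highest and PBS replicate 3 the lowest, and the OVA libraries fell between them. The means were 4041 ± 1175 (SD, n = 5) for PBS and 4006 ± 786 for OVA, a log2 fold change of 0.02 with an SE of 0.20 (adjusted p = 0.984 by limma; exact two-sided permutation p = 0.944). The 95% confidence interval of the difference ran from -0.41 to 0.45.

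CD6 binds the adhesion molecule ALCAM on antigen-presenting cells. The PBS libraries held 14214, 8922, 4896, 9129 and 11456 for Cd6, and the OVA libraries 8781, 12776, 10512, 10014 and 10674. Every OVA library again fell between the lowest and the highest PBS library, and 4 of 5 were above the PBS median. With 9724 ± 3445 for PBS and 10551 ± 1448 for OVA, the log2 fold change was 0.19 with an SE of 0.23 (adjusted p = 0.816 by limma; exact permutation p = 0.579; 95% interval -0.29 to 0.68). Without PBS replicate 3 the value was -0.035.

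Dok1 and Dok2 are adaptors that, once phosphorylated, bind the Ras GTPase activating protein, and T cells use both. Dok1 (ENSMUSG00000068335.6, chr6:83030934-83033471, minus strand) had 902, 868.4, 579, 495 and 504 in the PBS libraries. Its OVA libraries had 606, 695, 579, 688 and 836. The PBS values were highest in replicates 1 and 2 and lower in the other 3, whereas the OVA values lay between these sets. The means were 670 ± 199.8 and 681 ± 100.3, and the log2 fold change was 0.06 with an SE of 0.19 (adjusted p = 0.937 by limma; exact permutation p = 0.786; 95% interval -0.35 to 0.47).

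Dok2 (ENSMUSG00000022102.13, chr14:70766036-70778495, plus strand) was measured at 4061, 2396, 1949.7, 2778 and 2534 in the PBS libraries. The OVA libraries gave 2176, 2908, 2328, 2246 and 2783. PBS replicate 1 stood above the other 9 libraries, whose highest was OVA replicate 7. The means of 2744 ± 796 and 2488 ± 334 differed by a log2 fold change of -0.11 with an SE of 0.17 (adjusted p = 0.875 by limma; exact permutation p = 0.643; 95% interval -0.48 to 0.26). With each library scaled to the same total, which moved the median log2 fold change of all rows from 0.04 to 0.15, the Dok2 value was 0.01.

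Dgka and Dgkz encode the diacylglycerol kinases alpha and zeta, which turn diacylglycerol into phosphatidic acid. Dgka (ENSMUSG00000025357.8, chr10:128720134-128744855, minus strand) had 3945, 4419.6, 1753, 3320.3 and 4568 in the PBS libraries. In the OVA libraries it had 3140.2, 4753, 3767, 2910.3 and 3154. Apart from PBS replicate 3, the lowest of all 10, the groups covered overlapping spans, and 1 of 5 OVA libraries exceeded the PBS median. From means of 3601 ± 1142 and 3545 ± 746 the log2 fold change was 0.03 with an SE of 0.23 (adjusted p = 0.977 by limma; exact permutation p = 0.952; 95% interval -0.47 to 0.53), and without PBS replicate 3 it was -0.21. Dgka shares 105 of its 4762 exonic bases with Pmel on the other strand, and as the use of strand in the counting is not given in the sources used here, reads of those bases cannot be told apart.

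Dgkz (ENSMUSG00000040479.11, chr2:91932824-91975864, minus strand) was measured at 942, 1318, 443, 695 and 729.9 in the PBS libraries. Its OVA libraries gave 669, 945, 691, 658 and 969. The highest and the lowest value both came from PBS libraries, and the ratio between them, 2.97, was the largest of the 8 genes. Means of 826 ± 327 and 787 ± 156 gave a log2 fold change of -0.00025 with an SE of 0.24 (adjusted p = 1.00 by limma; exact permutation p = 1.0; 95% interval -0.51 to 0.51). Of its 6270 exonic bases, 222 overlap Gm9821 on the other strand.

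Cblb encodes the E3 ubiquitin ligase Cbl-b, which raises the threshold for T cell activation and makes it depend on CD28. Cblb (ENSMUSG00000022637.11, chr16:52031225-52208048, plus strand) had 609, 787, 438, 836 and 965 in the PBS libraries and 789, 872, 907, 914 and 707 in the OVA libraries. All OVA values fell between those of PBS replicates 1 and 5, and 4 of 5 were above the PBS median. The OVA mean of 838 ± 88.3 against 727 ± 206 in PBS gave the highest log2 fold change of the 8 genes, 0.25 with an SE of 0.19 (adjusted p = 0.690 by limma; exact permutation p = 0.310; 95% interval -0.16 to 0.66). Without PBS replicate 3 it was 0.08.

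Dtx1 encodes Deltex1, a ubiquitin ligase linked to Notch signalling and a target of NFAT in anergic T cells. Dtx1 (ENSMUSG00000029603.15, chr5:120680202-120711927, minus strand) gave 1122, 1258, 482, 842 and 877 in the PBS libraries and 715, 990.2, 736, 689 and 622 in the OVA libraries. In 4 of 5 OVA libraries the value was below every PBS library other than replicate 3, and OVA replicate 7 was the exception. The means were 916 ± 298 for PBS and 750.4 ± 140.8 for OVA, with a log2 fold change of -0.23 with an SE of 0.22 (adjusted p = 0.764 by limma; exact permutation p = 0.397; 95% interval -0.71 to 0.24). Leaving out PBS replicate 3 moved it to -0.45 (limma, adjusted p = 0.403, unadjusted p = 0.0177). Dtx1 was then the 1 member with an unadjusted p under 0.05. Of all 20314 rows tested without PBS replicate 3, 2024 had an unadjusted limma p under 0.05. DESeq2 without that library gave -0.45 (adjusted p = 0.308). Leaving out PBS replicate 1 or 2 moved it to -0.14 or -0.10 instead, so that its size depended on each of these 3 libraries, and it passed the threshold in none of these fits.

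**Figure D2:**
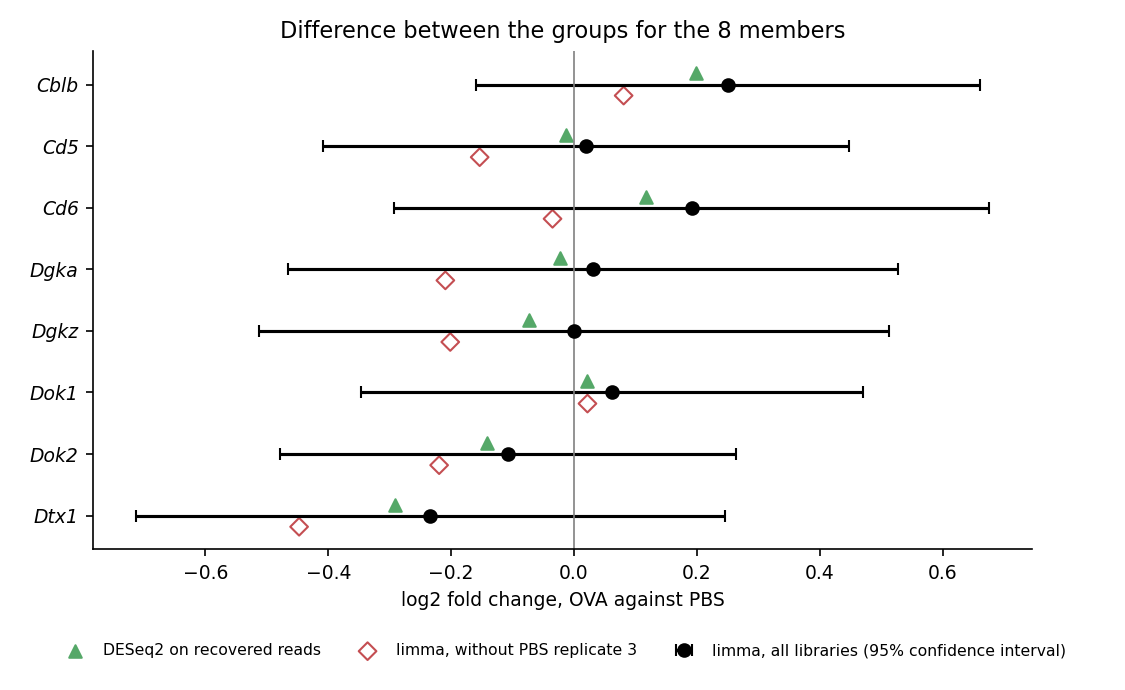
Log2 fold change of OVA against PBS (horizontal axis) for each of the 8 genes, from limma with its 95% confidence interval (black), from DESeq2 on recovered reads (green) and from limma without PBS replicate 3 (red). Every interval spans 0, and without PBS replicate 3 the values shift to the left, furthest for Cd6, Dgka, Dgkz and Dtx1.

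The values varied more between the PBS libraries than between the OVA libraries. The SD of the log2 values was larger in PBS for 8 of 8 genes, as it was for 78.3% of the 9808 rows with a mean of at least 100 normalized counts. The ratio of the SDs ran from 1.66 (Cd5) to 2.95 (Cd6) with a median of 2.06, beside a median of 1.49 over those rows. Without PBS replicate 3 it was larger in PBS for 6 of 8 genes and for 66.3% of rows, with Cd5 and Dgka the exceptions. The difference in spread was not tested.

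PBS replicate 3 was the lowest of the 10 libraries for 7 of 8 genes, with Dok1 the exception, and for 23.8% of the rows with a mean of at least 100. The mean log2 deviation of the 8 genes in that library, each from its own mean over 10 libraries, was -0.70, and those of the other 9 libraries lay between -0.14 and 0.35. It was also the lowest library for 6 of the 8 T cell markers, whose mean deviation there was -0.40, and for 14 of the 19 activation genes described below. PBS replicate 1 was at the other end. It was the highest library for 4 of 8 members (Cd5, Cd6, Dok1 and Dok2), for 24.5% of the rows with a mean of at least 100 and for 5 of the 8 T cell markers, with deviations of 0.35 and 0.33. The part that depth or T cell content had in these library differences was not tested.

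**Figure D3:**
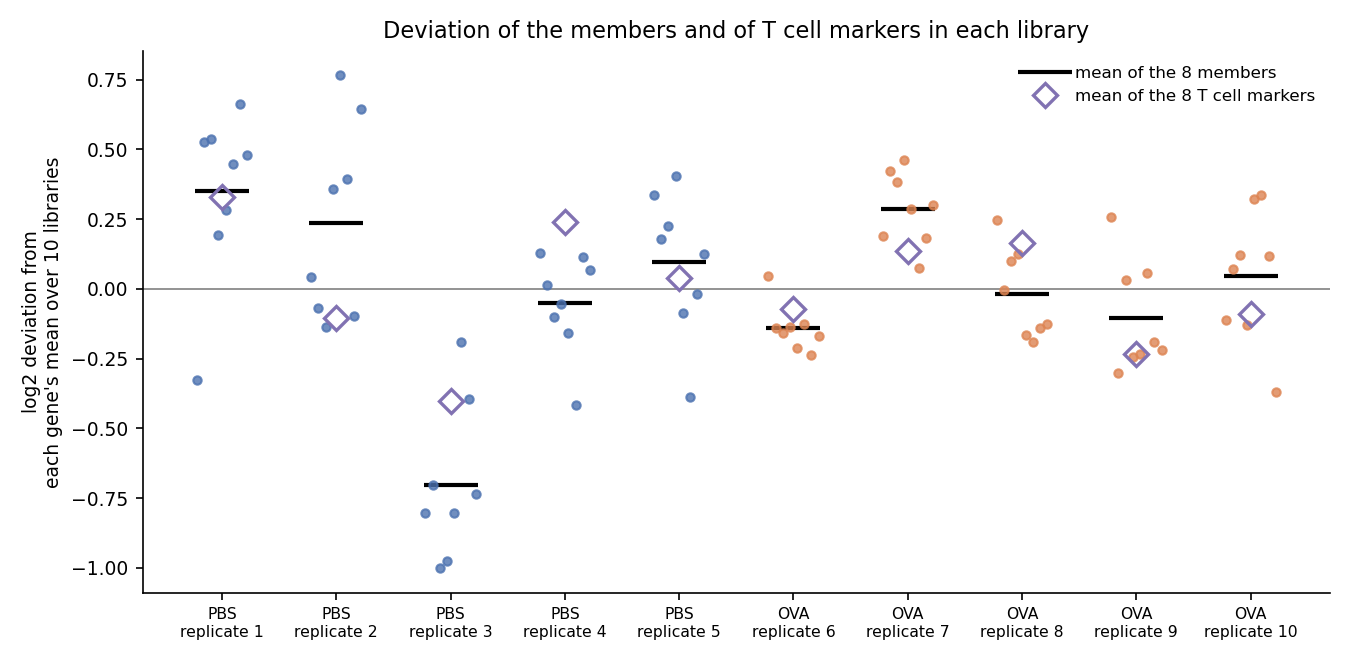
Log2 deviation of each of the 8 genes from its mean over the 10 libraries (vertical axis; 1 point per gene, blue PBS and orange OVA), with the mean of the 8 genes (black bar) and the mean of the 8 T cell markers (purple diamond). The bar of PBS replicate 3 stands at -0.70, below its T cell markers at -0.40, and the bars of PBS replicates 1 and 2 and OVA replicate 7 stand highest.

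The 4 pairs of like function were compared across the 10 libraries on the log2 scale, and Cd5 and Cd6 followed each other most closely. Their Pearson r was 0.93 (permutation p = 0.00013, adjusted over 4 pairs 0.00052) and Spearman's rho 0.90 (adjusted permutation p = 0.00332). Without PBS replicates 1 and 3, the libraries farthest from the Cd5 median, r was 0.77, and after the T cell marker mean was subtracted from both genes it was 0.84. The same subtraction gave 0.68 for Dgka and Dgkz, 0.58 for Dok1 and Dok2 and 0.18 for Cblb and Dtx1. Subtracting 1 mean from both genes adds a part that they share, so these values cannot tell what T cell content contributes. Dgka and Dgkz had an r of 0.76 (adjusted permutation p = 0.0272) and a rho of 0.72 (adjusted p = 0.0476, permutation), and r was 0.48 without PBS replicate 3 and OVA replicate 7. It was 0.52 without PBS replicate 3 alone and 0.75 without OVA replicate 7 alone, so that the relation rested in large part on PBS replicate 3. For Dok1 and Dok2, r was 0.47 (adjusted permutation p = 0.227) with a rho of 0.43 (0.294), and r was 0.20 without PBS replicates 1 and 2. For Cblb and Dtx1, r was 0.40 (adjusted permutation p = 0.255) with a rho of 0.14 (0.708), 0.13 without PBS replicates 1 and 3, and -0.25 when PBS replicate 3 alone was left out.

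**Figure D4:**
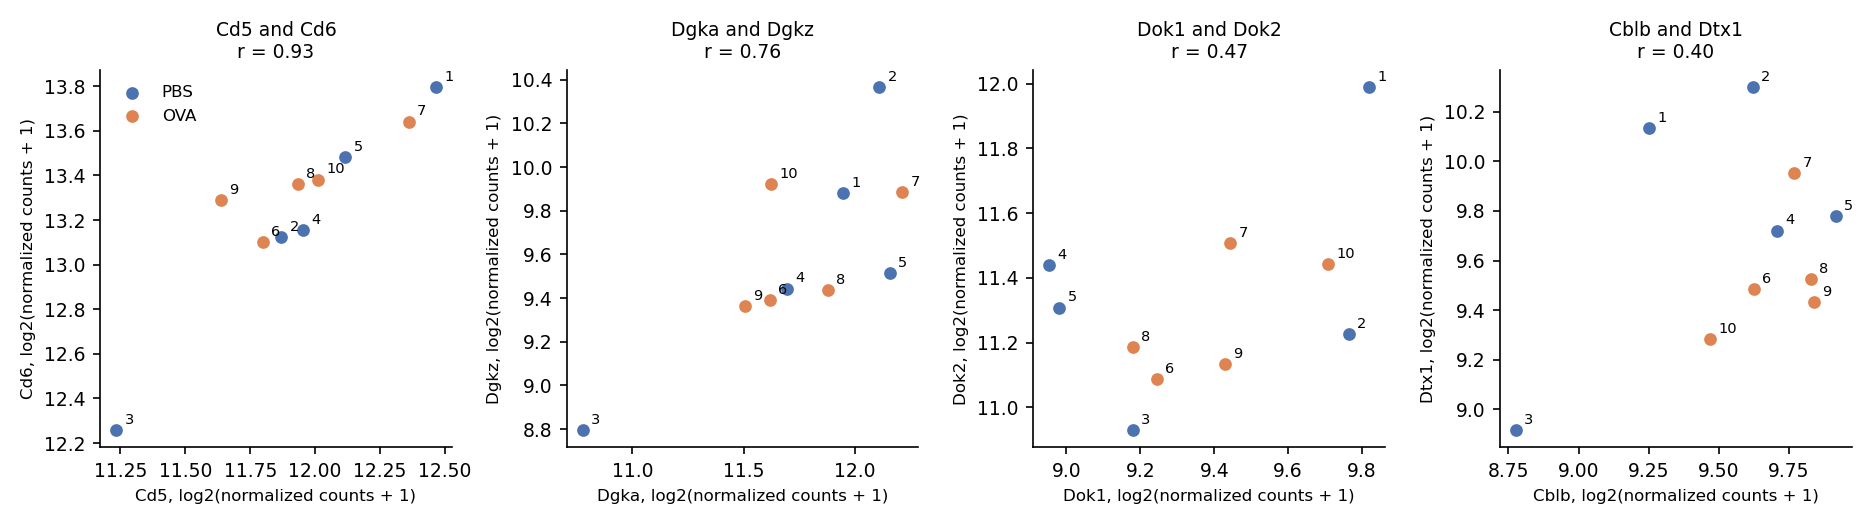
Log2(normalized counts + 1) of 4 pairs of genes, 1 gene on each axis, with 1 point per library labelled with its replicate number (blue PBS, orange OVA) and Pearson's r over 10 libraries above each panel. Cd5 and Cd6 lie close to a line (r = 0.93), and PBS replicate 3 is at the lower left corner for Cd5 and Cd6, Dgka and Dgkz, and Cblb and Dtx1.

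A ratio of 2 genes within a library does not depend on the scaling of that library. The log2 ratio of Cblb to Dtx1 was -0.31 ± 0.44 (SD, n = 5) in PBS and 0.17 ± 0.22 in OVA, a difference of 0.48 (exact two-sided permutation p = 0.0635, adjusted over 4 pairs 0.159). That of Cd5 to Cd6 was -1.24 ± 0.13 in PBS and -1.41 ± 0.15 in OVA, a difference of -0.17 (exact permutation p = 0.0794, adjusted 0.159). Dok1 to Dok2 differed by 0.17 (exact permutation p = 0.405, adjusted 0.540) and Dgka to Dgkz by 0.03 (exact permutation p = 0.881, adjusted 0.881). No ratio passed the threshold, and the smallest p that this permutation of the libraries allows is 0.00794.

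Per kilobase of annotated exon, Cd6 had the highest level of the 8 genes, with a mean of 1272 normalized counts over the 10 libraries. It was followed by Dok2 (901), Cd5 (816) and Dgka (750.3), then by Dok1 (342), Dtx1 (158), Dgkz (129) and Cblb (74.7). Neighbours in this order overlapped in their ranges over the libraries, except for Dok1 and Dtx1. Within a library, Dgka was above Dok1, Dok1 above Dtx1 and Dgkz above Cblb in 10 of 10 libraries each. Cd6 was above Dok2 and Dtx1 above Dgkz in 9 of 10, and Dok2 above Cd5 and Cd5 above Dgka in 8 of 10. The surface receptors, Dok2 and Dgka thus lay at the upper end and the ubiquitin ligases and Dgkz at the lower end, with levels that depend on which exons the cells use.

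Among 8977 other genes with a mean of at least 100, the profiles over the 10 libraries most like the mean standardized profile of the 8 members were those of Rela (Pearson r = 0.99), Rasa3 (0.98), Taf8 (0.98), S1pr4 (0.98) and Pld3 (0.97), where the median gene had 0.09. Rela encodes the p65 subunit of NF-κB, Rasa3 a Ras GTPase activating protein, and S1pr4 a lymphocyte receptor for sphingosine-1-phosphate. All 5 were lowest in PBS replicate 3, and 4 of 5 were highest in PBS replicate 1, with Pld3 highest in OVA replicate 7. Their log2 fold changes of OVA against PBS lay between -0.02 and 0.12 (limma, adjusted p of 0.882 or more).

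The pathway around the 8 genes was described by 4 lists of genes placed with a probability over 0.9, and limma, edgeR and DESeq2 each called 0 genes of every list. Of 19 genes that carry the receptor signal forward, 0 had an unadjusted p under 0.05, 11 had a positive value, and the median log2 fold change was 0.04. Small p-values in this list belonged to Malt1 (0.54; limma, adjusted p = 0.518) and Fyn (-0.23; limma, adjusted p = 0.589). Malt1 is a protease on the path from the receptor to NF-κB, and Fyn is a Src-family kinase.

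Of 30 other attenuators, 1 had an unadjusted p under 0.05, and the median was 0.09. It was Socs1, an inhibitor of cytokine receptor signalling, with 62.8, 46.5, 30.5, 52.7 and 73.1 in the PBS libraries and 101, 116, 84.4, 82.9 and 56.7 in the OVA libraries. The ranges overlapped through OVA replicate 10, and the log2 fold change of 0.74 with an SE of 0.30 did not pass the threshold (limma, adjusted p = 0.428). Next came Cbl, the relative of Cblb, with 0.37 (adjusted p = 0.551) and Dusp6, a phosphatase of ERK, with 0.28 (adjusted p = 0.567), both by limma. Nf1, a Ras GTPase activating protein that both groups carry in mutated form, lay between 22.2 and 41.2 in PBS and between 25.6 and 52.8 in OVA (limma, adjusted p = 0.764).

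Of 13 relatives of the members in their gene families, 0 had an unadjusted p under 0.05 and the median was 0.20. The lowest p-values were those of the diacylglycerol kinases Dgke (0.56; limma, adjusted p = 0.567), Dgkq (0.68; adjusted p = 0.616) and Dgkg (0.73; adjusted p = 0.650), each at a mean of at most 67.4 normalized counts in either group.

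The 8 transcription factors linked to anergy, some of which act on the promoters of Cblb, Dgka or Dtx1, had positive values in 8 of 8, beside 54.5% of all rows. Their median log2 fold change was 0.39, and it was 0.18 without PBS replicate 3, with 8 of 8 positive in both by limma. Without that library, 7 of 8 were positive by DESeq2 and with the T cell marker mean as a covariate. With array weights, a weight for each library, 7 of 8 were positive as well. Nr4a2, an orphan nuclear receptor, was measured at 10.3, 25.8, 8.31, 19.4 and 40.6 in PBS and at 37.5, 44.4, 25.6, 56.5 and 37.0 in OVA. Its value in PBS replicate 3 is that of 3 reads, and its log2 fold change was 1.08 with an SE of 0.44 (adjusted p = 0.438 by limma, unadjusted p = 0.0267). Egr3 had 0.58 (adjusted p = 0.514) and Nr4a1, an early gene of receptor engagement, 0.49 (adjusted p = 0.518), both by limma. None of the 8 factors passed the threshold, and neither did any of the 8 attenuators.

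**Figure D5:**
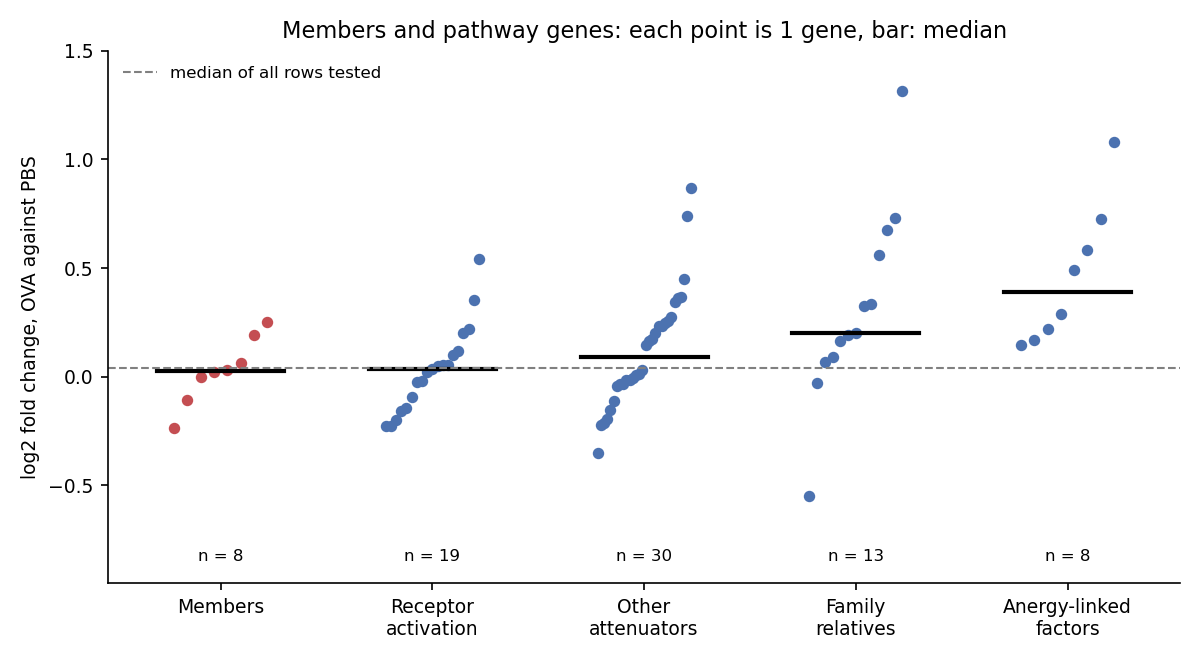
Log2 fold change of OVA against PBS (vertical axis) for the 8 members (red) and the genes of 4 pathway lists (blue), 1 point per gene, with the median of each (black bar) and the median of all rows tested (dashed line at 0.04). The medians run from 0.03 for the members to 0.39 for the anergy-linked factors, and no gene shown passed the threshold.

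No gene of the cell type marker lists passed the threshold by limma, and DESeq2 called 1 plasma cell marker, Jchain (adjusted p = 0.00426), and 1 neutrophil marker, Ngp (adjusted p = 0.0232). The 8 T cell markers summed to between 68030.1 and 120821 in PBS and between 77477 and 101430 in OVA, with a median log2 fold change of -0.03 (lowest limma adjusted p = 0.769). The 8 B cell markers had positive values in 8 of 8 (median 1.31, lowest limma adjusted p = 0.297), with sums of 827 to 2654 in PBS and 888 to 7313 in OVA. The 3 plasma cell markers had negative values in 3 of 3 (median -1.27, lowest limma adjusted p = 0.210), with sums of 14201 to 89668 in PBS and 7913 to 27121 in OVA. The 6 neutrophil markers had positive values in 6 of 6 (median 1.25, lowest limma adjusted p = 0.346), with sums of 9448 to 30165 in PBS and 12626 to 93915 in OVA. These sums rest largely on Mpo and Elane, which did not follow the other markers in every library. In OVA replicate 8 they had 9046 and 3255, where S100a8 had 136 and Ngp 131. In OVA replicate 6 Ngp, at 28611, was above Mpo, at 25803. Whether the rows of Mpo and Elane (placement probability 0.993 and 0.977) are the right ones was not tested. The 4 stromal markers of 12 that could be placed summed to 9.47 to 55.4 in PBS and 86.3 to 110 in OVA, without overlap. The values were positive in 3 of these 4, with Igfbp7 at -0.24 (median 1.95, lowest limma adjusted p = 0.143). No marker of these lists was at the floor in all libraries. With the B cell marker mean as a covariate the median of the 8 members was -0.0068 (lowest limma adjusted p = 0.548). With a stromal mean as covariate that median was 0.69 (lowest limma adjusted p = 0.500), and 0 of 8 were called in either fit. The stromal mean was taken over all 9 stromal names with values, whatever their placement probability. The 4 markers summed above are among them, and how far the mean itself separates the groups was not examined. The part of plasma cell and neutrophil RNA in the values of the 8 genes was not tested.

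The naive, activated, regulatory, coreceptor, macrophage, natural killer, dendritic, erythroid, platelet and endothelial lists had median log2 fold changes of -0.05, 0.11, 0.25, 0.09, 0.20, -0.23, 0.29, -1.45, 0.51 and 0.32 in this order, with 0 genes called by limma. The platelet median comes from 3 genes, 2 of them positive, whereas Pf4, the most abundant, had -1.02 (limma, adjusted p = 0.486). The platelet sums had a median of 305 in PBS and 175 in OVA. Of the endothelial genes, Kdr lay between 622 and 855 in all libraries, whereas Cdh5 reached 14.4 at most. Kdr was placed with a probability of 0.914, and whether its row is the right one was not tested.

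Sex-linked RNA also moved with the groups. Xist, which silences 1 X chromosome in female cells, was at 0 in 4 PBS libraries and 4.30 in PBS replicate 4, and at 516, 402, 369, 3.60 and 656 in OVA replicates 6 to 10. The Y-linked Ddx3y was at 393 to 1289 in the PBS libraries, at 356 to 578 in OVA replicates 6 to 8, at 959.7 in OVA replicate 9 and at 0 in OVA replicate 10, so that 3 OVA libraries held both RNAs. Xist was thus above 4.30 only in OVA libraries. Treatment and sex-linked differences between the libraries cannot be told apart, except through OVA replicate 9 alone. The labels give no sex, and whether those 3 libraries hold more than 1 mouse is not given in the sources used here. Of the other Y-linked genes listed, Uty and Eif2s3y were also at 0 in OVA replicate 10 whereas Kdm5d had 427 there, and the placement of Kdm5d, with a probability of 0.925, is therefore in doubt. With Xist as a covariate the median of the 8 members was -0.22, the lowest limma adjusted p of a member was 0.992, and 0 of 8 were called. That fit had little left to compare, as Xist was near 0 in PBS and high in every OVA library but replicate 9. In it 876 of 20249 rows had an unadjusted limma p under 0.05, against 1978 without the covariate. Without the 3 libraries that held both RNAs, the median was -0.02 and 0 of 8 were called (lowest limma adjusted p = 1.00), with 5 PBS against 2 OVA libraries.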

How the data were processed

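RNA of spleen T cells from 5 PBS and 5 OVA libraries was sequenced. The authors aligned reads with STAR 2.6.1d to the Ensembl assembly (mm10 in the labels), counted genes in Partek 9.0 and scaled each library by its median-ratio size factor, so that the deposited values are a normalized signal (normalized counts). Reads were recovered through the value that 1 read has in each library. Of the lower nonzero values, the only ones checked, 100% came out whole to within 0.1. Names were realigned with GENCODE M21 by a hidden Markov model.

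Rows with a mean of at least 1 were compared with limma 3.58.1 (R 4.3.3) after a pseudocount of 1 and a log2 transform. The variance followed a trend with the mean, and p-values were adjusted by Benjamini-Hochberg over all rows. The fold changes on this scale slightly understate those of low genes. edgeR 4.0.16 (2 rows called) and DESeq2 1.42.0 (167 rows called) were run on recovered reads. The fits were also run on simulated counts with changes far larger than those of the members. That run does not bear on differences as small as theirs. Single members were compared by exact two-sided permutation, and pairs with 100000 resamples. Alternatives were other pseudocounts, minima, scalings, tools, weights, covariates and samples. The named genes are the 8 members, the 3 genes of each pathway list with the smallest p, the 5 genes of most similar profile, and markers that move with the groups. A gene that this rule names is not reported here. The members and lists were chosen with earlier results of these data known. No library was left out.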

Additional observations from a re-analysis of the deposited data

How the results depend on the processing

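The count of members called was 0 under each of the alternatives, the names as listed included, and the lowest limma or DESeq2 adjusted p of a member under any of them was 0.308. The direction of each difference other than that of Cblb was reversed under at least 1 alternative. The covariate for T cell markers, the fits that combine a setting with leaving out PBS replicate 3, and the fit without the 3 libraries that hold both Xist and Ddx3y were added after seeing the data. Values below are log2 fold changes of OVA against PBS. With edgeR, Cd5 had -0.0097 and Dgka -0.025. With DESeq2, Cd5 had -0.013 and Dgka -0.024, and without PBS replicate 3 DESeq2 gave Cd5 -0.15, Cd6 -0.053, Dgka -0.20 and Dok1 -0.027. With array weights, Cd5 had -0.047 and Dgka -0.041. With Xist as a covariate, which was high in every OVA library but replicate 9 and near 0 in PBS, Cd5 had -0.34 and Dgka -0.21. With quantile normalization Dgkz had 0.042, and at the same total Dgkz had 0.11 and Dok2 0.0055. The stromal covariate took all 9 stromal names with values, whatever their placement probability, and the sums of 4 of them did not overlap between the groups. With it Dgkz had 0.79, Dok2 0.10 and Dtx1 0.68. With the B cell covariate Dok1 had -0.084. With the T cell covariate Dgkz had 0.031, and without PBS replicate 3 this covariate gave Dgka -0.16 and Dok1 -0.020. Without the 3 libraries with both Xist and Ddx3y, Cd5 had -0.10, Dgka -0.17 and Dgkz 0.044. When each library was left out in turn, the ranges were 0.081 to 0.37 for Cblb, -0.15 to 0.15 for Cd5, -0.035 to 0.35 for Cd6, -0.21 to 0.14 for Dgka, -0.20 to 0.19 for Dgkz, -0.035 to 0.18 for Dok1, -0.22 to 0.045 for Dok2 and -0.45 to -0.10 for Dtx1, and the r of the pairs ranged from 0.87 to 0.98 for Cd5 and Cd6, 0.52 to 0.84 for Dgka and Dgkz, 0.14 to 0.61 for Dok1 and Dok2, and -0.25 to 0.63 for Cblb and Dtx1. The cause of these reversals was not tested. Over all rows, limma called 0 to 135 rows when 1 library was left out, with 135 without PBS replicate 5. No paired analysis was possible because the groups share no replicate numbers. Depth did not limit the detection of the members, and its part in the spread between libraries was not tested.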
